A study of Sus scrofa with 9 samples.

Results

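The complement system genes described here are 33 genes of the recognition proteins, proteases, convertase components, terminal components, regulators and receptors of complement, found by symbol in a table of 29837 gene symbols from pig liver. All 33 were present and all 33 passed the filter on low counts, within 14100 genes tested. Livers of 4 MIDY pigs were compared with livers of 5 wild type (WT) pigs. MIDY abbreviates a diabetes of youth caused by a mutant INS gene, and the MIDY animals are transgenic for an insulin gene with the C94Y change, while WT pigs lack it. All 9 animals were female and 2 years old, and diabetic animals were given short- and long-acting insulin, so that genotype and insulin treatment cannot be told apart. The promoter of the transgene, the number of founder lines and the relation between animals are not given in the labels used here.

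Complement is a cascade of plasma proteases that coats microbes and damaged cells with fragments of C3 and C4 and can open pores in their membranes. It is started by antibody-bound C1q (the classical pathway), by sugar-binding lectins (the lectin pathway) or by slow spontaneous turnover of C3 (the alternative pathway), and all of these meet at the C3 and C5 convertases. Hepatocytes secrete most of the circulating components and several respond to acute phase cytokines, whereas C1q and properdin come mainly from macrophages and other myeloid cells. Host cells are shielded by soluble and membrane-bound regulators.

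Libraries held 14115415 to 19533463 counts, and the 33 members together took 3.26 to 4.26% of the counts in MIDY libraries and 3.72 to 4.92% in WT libraries. Reads of INS numbered 3 in all MIDY libraries together and 2 in all WT libraries together, too few to check the genotype labels in liver. ALB, APOB and the 8 other hepatocyte markers were tested, with 0 of 10 called by edgeR, 1 higher and 0 lower at an unadjusted p below 0.05, 1 higher by DESeq2 and 0 by limma voom. Levels are given as CPM, counts per 1000000 of the TMM-scaled library size. Transcript lengths were not used here, so levels of different genes are not compared. In bulk liver, fewer cells of a type and less RNA per cell cannot be told apart.

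In MIDY liver 1 complement transcript fell and none rose at a Benjamini-Hochberg adjusted p below 0.05 over all genes (edgeR quasi-likelihood test). The one that fell was CD59, the membrane-anchored inhibitor of the terminal pore. Over all genes tested 1.17% were called, 0.355% lower and 0.816% higher, against 3.03% of members, all of it CD59. At an unadjusted p below 0.05, 7 members (21.2%) were lower and 0 were higher, against 8.0% and 8.15% of all genes. These 7 were CD59, CFD, C7, MASP2, C1QC, C5 and C1QA. DESeq2 called 3 members lower (CD59, CFD and MASP2) and limma voom 2 (CD59 and CFD), and neither called any higher.

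Most members had slightly lower values in MIDY liver, by amounts that did not pass the test singly. The fitted log2 fold change, MIDY over WT, was below 0 for 29 of 33 members (87.9%), against 50.7% of all genes, and its median was -0.20 for the members and 0.00 for all genes. The 4 members above 0 were MASP1, MBL1, MBL2 and C8B. Member values ran from -0.79 for MASP2 to 0.24 for MBL2. Groups did not overlap for CD59 and CFD, both lower in MIDY, which is 6.06% of members, and for no member that was higher, against 2.63% and 3.72% of all genes. The median moved to -0.30 without MIDY 1, and to -0.13 without MIDY 4 or without WT 3, and the number of members below 0 ranged from 26 to 32 over the fits that left out a library.

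**Figure D1:**
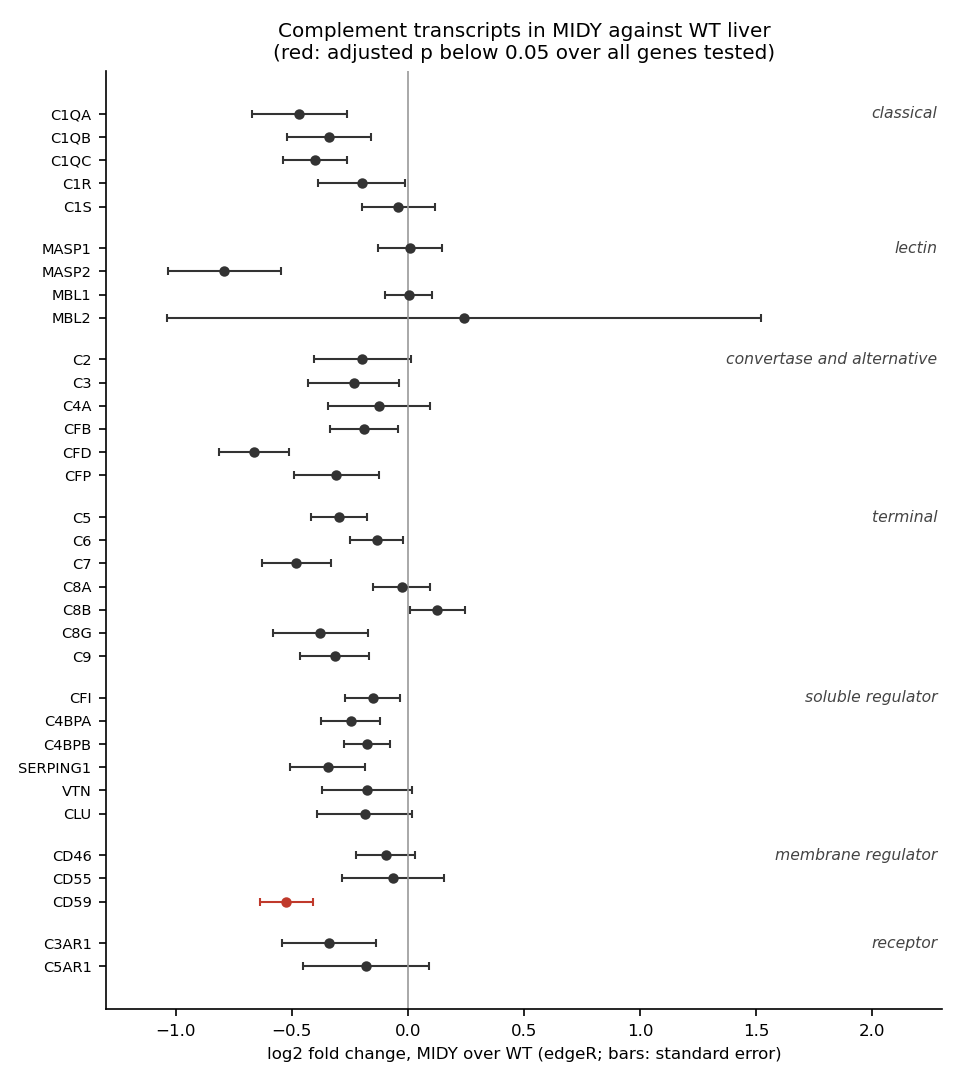
Log2 fold change of each of the 33 members (points), MIDY over WT, with its standard error (bars), grouped by role down the page. CD59, in red, is the member called over all genes, and 29 of the 33 points lie below 0.

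**Figure D2:**
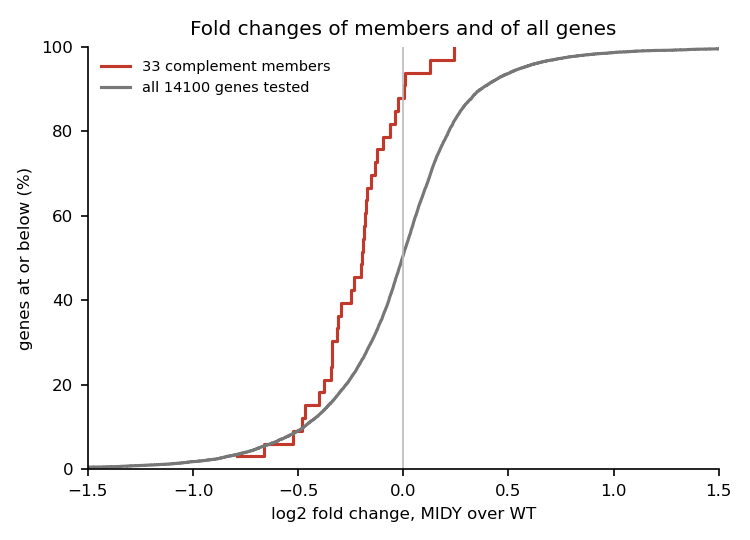
Cumulative share of genes (vertical axis, percent) at or below each log2 fold change, MIDY over WT (horizontal axis, shown from -1.5 to 1.5), for the 33 members in red and all 14100 genes tested in grey. The member curve lies to the left of the grey one over most of the axis, with medians of -0.20 and 0.00, and the curves meet at the low end.

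Of the 3 membrane regulators, CD59 fell and CD46 and CD55 were not called. CD59, a lipid-anchored surface protein, binds the forming membrane attack complex and blocks the insertion of C9. It was measured at 20.3, 20.1, 17.8 and 20.0 CPM in the MIDY libraries, against 25.4, 33.1, 24.0, 29.0 and 28.7 CPM in the WT libraries. Every MIDY library lay below every WT library, and the MIDY libraries were close together except for MIDY 3. The mean was 19.5 ± 1.20 CPM in MIDY (SD, n = 4) and 28.1 ± 3.54 CPM in WT (SD, n = 5), a log2 fold change of -0.52 ± 0.11 (SE; edgeR adjusted p = 0.0479), or 30.4% lower. Behind these levels lay 289 to 663 reads per library. The call is a narrow one: CD59 was called in 2 of 9 fits that left out a library, those without WT 1 or WT 3, with adjusted p from 0.0429 to 0.152 and log2 fold changes from -0.57 to -0.46. It was called in 6 of 8 fits with another scaling, filter or tool, and not with scaling by total counts alone (adjusted p = 0.105) or with no filter on low counts (0.0508). The gene lies on chromosome 2 at 27186587 to 27207303 (Sscrofa11.1), and a model that overlaps it, LOC106509385, reached at most 0.0624 CPM.

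Summed markers of T and NK cells and of B and plasma cells were lower in MIDY, without overlap between the groups. How often such sums do not overlap over all genes was not computed. The 8 T and NK cell markers summed to 11.4 to 14.8 CPM in MIDY and 17.2 to 31.0 CPM in WT, and of 7 tested edgeR called CD2 lower (-0.90 ± 0.18 log2, SE; adjusted p = 0.0377) and none higher, as did DESeq2, while limma voom called 0. The 6 B and plasma cell markers summed to 14.7 to 21.9 CPM in MIDY and 22.1 to 52.4 CPM in WT, a narrow gap. Of 3 tested, 0 were called by edgeR, DESeq2 or limma voom, and 2 were lower at an unadjusted p below 0.05. Most of this sum was JCHAIN, which overlapped between the groups, at 12.2 to 18.9 CPM in MIDY and 17.2 to 48.1 CPM in WT. Of 10 endothelial and 6 bile duct markers tested, 0 were called by edgeR, DESeq2 or limma voom, with 1 higher and 1 lower in each list at an unadjusted p below 0.05. The part of these cells in the CD59 and CFD values was not tested.

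CD46, a cofactor for the cleavage of C3b and C4b by factor I, was at 41.8, 36.4, 47.5 and 33.9 CPM in MIDY and at 35.7, 48.0, 40.0, 41.7 and 47.8 CPM in WT, and the groups overlapped over nearly the whole range (log2 fold change -0.10 ± 0.13 SE; edgeR adjusted p = 0.764). CD55, which speeds the decay of the convertases, was read 63 to 175 times per library and spread widely in MIDY, from 3.93 to 9.22 CPM against 5.67 to 8.0 CPM in WT. Its log2 fold change was -0.06 ± 0.22 (SE; edgeR adjusted p = 0.921).

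Among the 6 convertase components and alternative pathway genes, CFD came nearest to a call. CFD encodes factor D, the protease that cuts factor B once it is bound to C3b, and it is known best as a product of fat tissue. CFD was at 19.3, 21.0, 21.2 and 27.6 CPM in the MIDY libraries, against 28.4, 40.1, 32.0, 44.1 and 31.7 CPM in the WT libraries. The groups did not overlap, though MIDY 4 and WT 1 lay close to each other. The log2 fold change was -0.66 ± 0.15 (SE; edgeR adjusted p = 0.0567), from 303 to 803 reads per library. CFD passed the threshold without MIDY 4 (-0.79, adjusted p = 0.0319), without WT 1 (-0.74, 0.0380), with no filter on low counts (0.0331), with DESeq2 (0.00508), with limma voom (0.0457) and with a surrogate variable (0.0394). The fat cell marker ADIPOQ had 0 reads in every MIDY library and at most 1 in a WT library. The summed level of the 5 fat cell markers was 4.98 to 9.30 CPM in MIDY and 6.10 to 7.4 CPM in WT. Of 3 tested, 0 were called by edgeR, DESeq2 or limma voom, and 1 was higher at an unadjusted p below 0.05. That marker, PLIN1, was at 1.52 to 2.87 CPM in MIDY and 1.10 to 1.38 CPM in WT (0.90 ± 0.25 log2, SE, edgeR adjusted p = 0.108). MED16 overlaps CFD (chromosome 2, 77509792 to 77511988), so that counts of CFD are uncertain, and MED16 had a fitted value of 0.13 log2 (edgeR adjusted p = 0.618).

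C3, the protein on which all 3 pathways converge, spread widely within both groups. It was at 20153, 18869, 13606 and 11535 CPM in the MIDY libraries, against 18093, 21981, 23214, 16087 and 14932 CPM in the WT libraries. MIDY 1 and MIDY 2 lay inside the WT range, and MIDY 3 and MIDY 4 below it. The log2 fold change was -0.23 ± 0.20 (SE; edgeR adjusted p = 0.603). CFB, the protease of the alternative C3 convertase, C2, its counterpart in the classical and lectin convertase, and C4A, the thioester protein that C2 binds, were fitted at -0.19, -0.20 and -0.12 log2 (edgeR adjusted p = 0.561, 0.696 and 0.837). C2 and C4A were lowest in MIDY 4, at 207 and 1006 CPM. CFP, properdin, which stabilises the alternative convertase, was at 14.5, 16.0, 12.6 and 12.7 CPM in MIDY and at 15.6, 22.2, 21.6, 11.6 and 15.2 CPM in WT, with WT 4 lower than every MIDY library (-0.31 ± 0.18 log2, SE; edgeR adjusted p = 0.435).

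**Figure D3:**
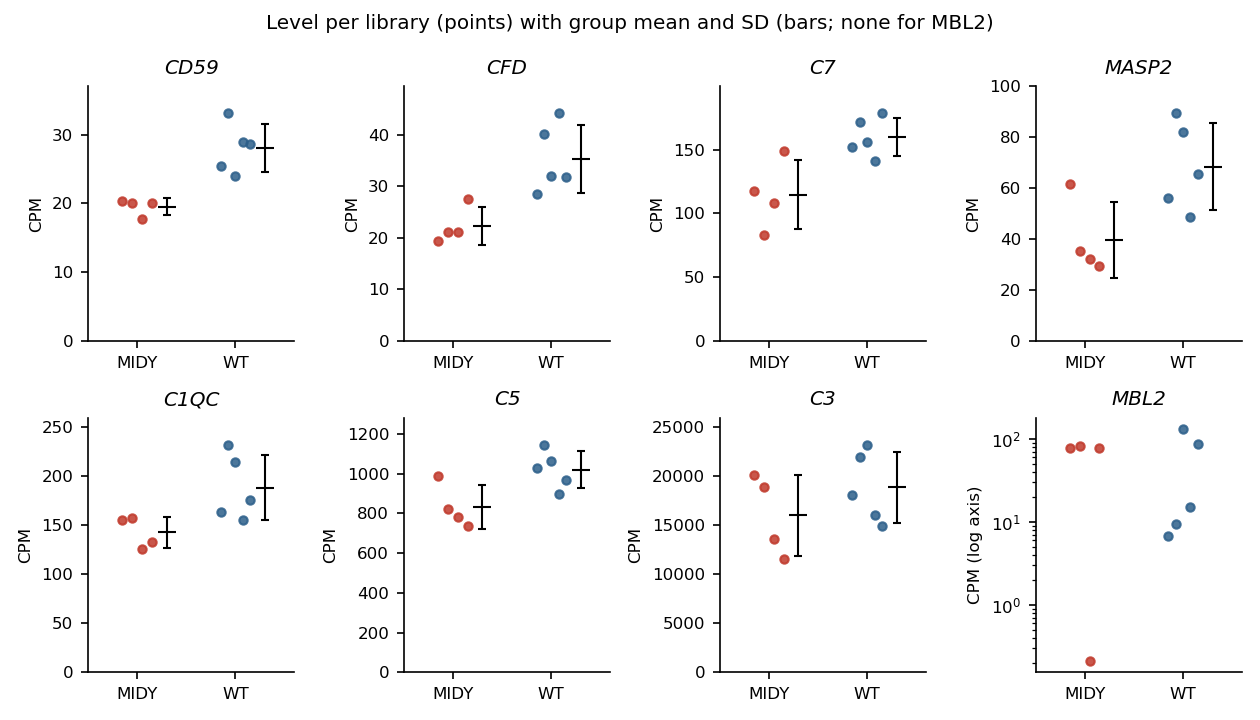
Level in CPM (vertical axes from 0, log axis for MBL2) of 8 members in each MIDY library (red, left) and WT library (blue, right); black marks are the group mean and bars the SD, not drawn for MBL2. The groups are apart for CD59 and CFD, MIDY 4 lies within the WT range for C7 and MIDY 1 for MASP2, and MBL2 ranges from 0.211 to 131 CPM.

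The 3 chains of C1q had lower values in MIDY liver without passing the test. C1q is built from its A, B and C chains and recognises antibody bound to a target. C1QC was at 155, 157, 126 and 133 CPM in the MIDY libraries, against 164, 232, 215, 156 and 176 CPM in the WT libraries, so that the highest MIDY library only just passed the lowest WT library, WT 4 (log2 fold change -0.40 ± 0.14 SE; edgeR adjusted p = 0.179). C1QA was at 83.7, 87.0, 56.3 and 65.5 CPM in MIDY and at 85.2, 110.3, 149.6, 80.7 and 79.7 CPM in WT (-0.47 ± 0.20 log2, SE; edgeR adjusted p = 0.289). WT 3 stood above the rest for C1QA, and MIDY 3 was the lowest for all 3 chains. C1QB had a log2 fold change of -0.34 ± 0.18 (SE; edgeR adjusted p = 0.381). The 3 genes lie side by side on chromosome 6 within 80586259 to 80606076, with gaps of 3.38 and 4.22 kb.

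Macrophage markers stand beside the C1q values as follows. Of 14 Kupffer cell and macrophage markers, edgeR called 0, with 4 lower and 1 higher at an unadjusted p below 0.05, DESeq2 called LYZ lower and MARCO higher, and limma voom called 0. Their median log2 fold change was -0.20, and their summed level was 1050.1 to 1351 CPM in MIDY and 1134 to 1473 CPM in WT. CD163, the scavenger receptor of these cells, was lower in every MIDY library than in every WT library (-0.21 ± 0.08 log2, SE, edgeR adjusted p = 0.239). MARCO was higher in every MIDY library than in every WT library (0.98 log2, edgeR adjusted p = 0.138). The other markers of the list overlapped between the groups. Over all genes 2.63% did not overlap with MIDY lower and 3.72% with MIDY higher. CD5L was fitted at 0.07 log2 (edgeR adjusted p = 0.858). The part of macrophage content in the C1q values was not tested.

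The proteases of C1 had smaller fitted differences than the C1q chains, a contrast between genes that was not tested. C1S, which cuts C4 and C2, was at 2399, 2210.1, 1812 and 1493 CPM in the MIDY libraries, against 2154, 2095, 2430.1, 1784 and 1716 CPM in the WT libraries, and the groups overlapped (log2 fold change -0.04 ± 0.16 SE; edgeR adjusted p = 0.931). C1R, which activates C1S, had a log2 fold change of -0.20 ± 0.19 (SE; edgeR adjusted p = 0.647). Both genes lie on chromosome 5 with a gap of 15.2 kb.

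In the lectin pathway MASP2 was lower in 3 of the 4 MIDY libraries, and MBL2 varied widely between WT animals and was near 0 in MIDY 3. MASP2, the protease that cuts C4 and C2 after a lectin has bound sugar, was at 61.5, 35.2, 32.0 and 29.5 CPM in the MIDY libraries, against 56.2, 89.3, 81.9, 48.7 and 65.6 CPM in the WT libraries. MIDY 1 lay inside the WT range and the other MIDY libraries below it. The log2 fold change was -0.79 ± 0.24 (SE; edgeR adjusted p = 0.153), it was -1.09 and called without MIDY 1 (adjusted p = 0.0301), and DESeq2 called it over all libraries (adjusted p = 0.0322). TARDBP, which overlaps MASP2 on chromosome 6 (71224637 to 71243041), was at 37.9 to 60.2 CPM in MIDY and 34.3 to 58.6 CPM in WT, with a fitted value of 0.06 log2 (edgeR adjusted p = 0.911), and reads of the pair may not be fully told apart. MASP1, the partner protease that activates MASP2, was at 93.3, 93.3, 115 and 88.2 CPM in MIDY and at 103, 82.0, 122, 78.9 and 99.8 CPM in WT (0.01 ± 0.14 log2, SE; edgeR adjusted p = 0.987).

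MBL2, one of the mannose-binding lectins, was at 77.1, 82.0, 0.211 and 76.5 CPM in the MIDY libraries, against 6.74, 9.29, 131, 14.9 and 87.4 CPM in the WT libraries. MIDY 3 held 4 reads of it, where WT 3 held 1898. The WT libraries fell into low and high values, MIDY 3 lay below all others and the other MIDY libraries were close together, and the fitted log2 fold change of 0.24 had a standard error of 1.28 (edgeR adjusted p = 0.953). Its sign turned in 4 of 18 alternatives, among them limma voom (-1.58, adjusted p = 0.657), and leaving out MIDY 3 gave 0.66 and leaving out WT 3 gave 0.99. Its paralog MBL1 was even across the same animals, from 47.6 to 61.8 CPM in MIDY and from 51.7 to 60.3 CPM in WT (0.00 ± 0.10 log2, SE; edgeR adjusted p = 0.995). MBL2 and MBL1 both lie on chromosome 14, at 97103926 to 97107635 and 82080232 to 82085174.

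Of the 7 terminal genes, which form the membrane attack complex, C7 and C5 had the smallest p-values and none was called by edgeR, DESeq2 or limma voom. C7 joins the growing complex to the membrane. It was at 118, 83.1, 109 and 149 CPM in the MIDY libraries, against 152, 172, 156, 141 and 178 CPM in the WT libraries. MIDY 4 lay inside the WT range and the other MIDY libraries below it. The log2 fold change was -0.48 ± 0.15 (SE; edgeR adjusted p = 0.142), and without MIDY 4 it was -0.64 and called (adjusted p = 0.0420). C5, whose cleavage opens the terminal pathway, was at 987, 821, 779 and 735 CPM in MIDY and at 1028, 1145, 1061, 898 and 969 CPM in WT, with MIDY 1 alone inside the WT range (-0.30 ± 0.12 log2, SE; edgeR adjusted p = 0.257).

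Most markers of stellate cells and fibroblasts had lower fitted values in MIDY, as C7 had, with 11 of 13 below 0, against 50.7% of all genes. LRAT and RGS5 were fitted above 0, at 0.37 and 0.46 log2 (edgeR adjusted p = 0.414 and 0.604). Of 13 such markers tested, edgeR called MGP (-0.94 ± 0.18) and COL1A2 (-0.81 ± 0.17 log2, SE; edgeR adjusted p = 0.0303 and 0.0434) lower and none higher, and 9 were lower at an unadjusted p below 0.05; DESeq2 called 7 lower and limma voom 4. Their summed level was 358, 315, 433 and 476 CPM in the MIDY libraries, against 452, 752, 526, 658 and 573 CPM in the WT libraries. The sums overlapped, with MIDY 4 above WT 1. Among MIDY libraries, MIDY 2 was the lowest and MIDY 4 the highest both for C7 and for the summed markers. MIDY 1 and MIDY 3 stood in opposite order for the 2. Among WT libraries, WT 4 was the lowest for C7 and the second highest for the markers. The part of these cells in the C7 values was not tested.

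The other terminal genes had fitted values from -0.38 to 0.13. C8G, the small lipocalin chain of C8, was at 743 CPM in WT 3, well above the 280.5 to 478 CPM of all other libraries of either group (-0.38 ± 0.20 log2, SE; edgeR adjusted p = 0.398). C8A and C8B, the pore-forming chains of C8, were fitted at -0.03 and 0.13 log2 (edgeR adjusted p = 0.939 and 0.648). C9, which polymerises into the pore, was at 534 to 803 CPM in MIDY and 723 to 1042 CPM in WT (-0.32 ± 0.15 log2, SE; edgeR adjusted p = 0.320). C6, which binds C5b before C7 does, had a log2 fold change of -0.13 ± 0.11 (SE; edgeR adjusted p = 0.607). C7 and C6 are neighbours on chromosome 16 with a gap of 121 kb, and C9 lies 1.27 Mb away.

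All 6 soluble regulators had fitted values below 0 and none was called by edgeR, DESeq2 or limma voom, nor was any at an unadjusted p below 0.05 by edgeR. SERPING1, the C1 inhibitor, was at 1914, 1938, 1455 and 1590.5 CPM in the MIDY libraries, against 1722, 2547, 2756, 1859 and 2064 CPM in the WT libraries (log2 fold change -0.34 ± 0.16 SE; edgeR adjusted p = 0.316). MIDY 1 and MIDY 2 lay above WT 1 and WT 4, so that the groups overlapped. C4BPA, the main chain of the C4b-binding protein, was at 382, 371, 311 and 271 CPM in MIDY and at 365, 445, 430.1, 356 and 382 CPM in WT (-0.25 ± 0.13 log2, SE; edgeR adjusted p = 0.363). Its symbol has 2 entries in the reference, so its counts are uncertain. C4BPB, its partner chain, CFI, the protease that inactivates C3b and C4b, and CLU, a chaperone that holds terminal complexes in solution, were fitted at -0.17, -0.15 and -0.19 log2 (edgeR adjusted p = 0.417, 0.561 and 0.706). VTN, vitronectin, which also keeps terminal complexes from membranes, was at 3449, 3641, 2646 and 2817 CPM in MIDY and at 3477, 3052, 5373, 2992 and 2837 CPM in WT, with WT 3 far above the rest (-0.18 ± 0.19 log2, SE; edgeR adjusted p = 0.706).

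The receptors for the C3a and C5a fragments, carried by myeloid cells, were read 34 to 424 times per library. C3AR1 was at 9.73, 12.6, 10.1 and 9.86 CPM in the MIDY libraries, against 11.7, 21.2, 11.3, 11.2 and 11.4 CPM in the WT libraries, with WT 2 above all others (log2 fold change -0.34 ± 0.20 SE; edgeR adjusted p = 0.434). C5AR1 was at 4.37, 4.93, 4.16 and 2.83 CPM in MIDY and at 2.36, 6.50, 5.73, 3.97 and 4.35 CPM in WT (-0.18 ± 0.27 log2, SE; edgeR adjusted p = 0.801). The 7 neutrophil markers summed to 4.72 to 6.30 CPM in MIDY and 6.78 to 12.04 CPM in WT, also without overlap between the groups. Of 3 tested, 0 were called by edgeR, with 1 lower at an unadjusted p below 0.05. DESeq2 called CXCR2 lower and limma voom called 0. The part of these cells in the receptor values was not tested.

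The highest and lowest values came mostly from a few animals. A WT library held the highest value for 30 of 33 members and a MIDY library the lowest for 30, against 54.1% and 46.1% of all genes tested. WT 3 was the highest of the 9 libraries for 17 members and WT 2 for 11, and MIDY 4 was the lowest for 17 and MIDY 3 for 8. Of the 14100 genes tested WT 3 was the highest for 2334 and WT 2 for 1683, and MIDY 4 was the lowest for 1559 and MIDY 3 for 1376. At the other end, WT 3 was the lowest for 2463 of these genes and MIDY 4 the highest for 1537. WT 3 also had the lowest TMM factor (0.900) and MIDY 4 the highest (1.10). With total-count scaling WT 3 was the highest for 10 members and WT 2 for 14, and MIDY 4 was the lowest for 9 and MIDY 3 for 13. Under that scaling WT 3 was the highest for 1145 of all genes tested and WT 2 for 2013, and MIDY 4 was the lowest for 621 and MIDY 3 for 1287. WT 3 was then the lowest for 4042 of all genes tested and MIDY 4 the highest for 3329.

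**Figure D4:**
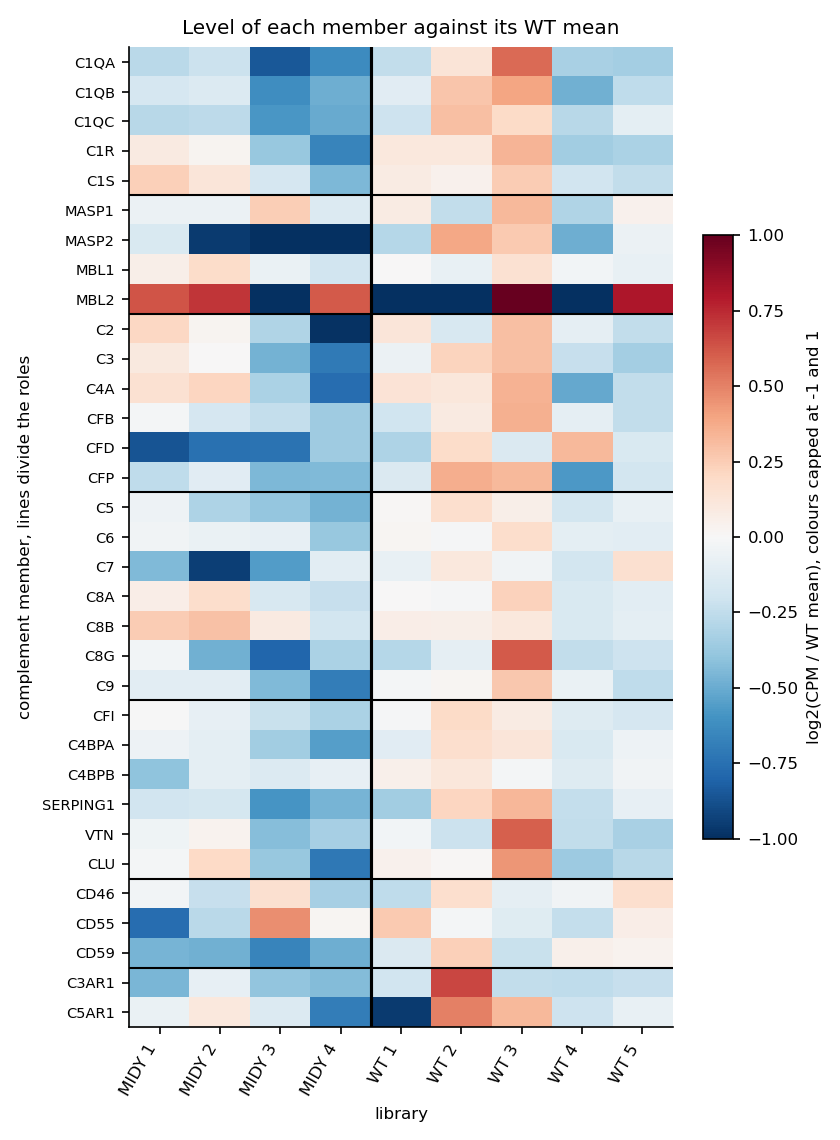
Level of each member (rows, grouped by role) in each library (columns, MIDY left of WT) as log2 of its CPM over its WT mean, with colours capped at -1 and 1. MIDY 3 and MIDY 4 are blue for most rows and WT 3 is red for most, while MBL2 alternates between high and low animals in WT and is low in MIDY 3.

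WT 3 and MIDY 4 also stood at the ends for many acute phase proteins, mostly hepatic plasma proteins whose level follows inflammation. Of 17 tested, WT 3 was the highest for 9 and MIDY 4 the lowest for 9. WT 2 was the highest for 2 and MIDY 3 the lowest for 3. With total-count scaling WT 3 was the highest for 7 and MIDY 4 the lowest for 8. CRP, a pentraxin that can bind C1q, fell in MIDY liver to 78.6 to 129 CPM, against 181 to 400.5 CPM in WT (-1.45 ± 0.23 log2, SE; edgeR adjusted p = 0.0202), and lost its call without MIDY 2 (adjusted p = 0.0540). CRP was the only one of the 17 called by edgeR or limma voom, and DESeq2 called ORM1 lower as well. The median log2 fold change of the 17 was -0.26. Of the 17, 15 were fitted below 0, against 29 of the 33 complement members and 50.7% of all genes. At an unadjusted edgeR p below 0.05, 4 of the 17 were lower and 0 higher, against 8.0% and 8.15% of all genes. Of 21 genes of acute phase signalling and hepatocyte transcription, among them IL6R, STAT3 and HNF4A, 0 were called by edgeR, DESeq2 or limma voom, 1 was lower and 0 higher at an unadjusted p below 0.05, and the median was -0.01. The part of acute phase differences between animals in the complement values was not tested.

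Other genes of the pathway, from a list of 30 of which 24 were found and 23 tested, gave 0 calls in either direction by edgeR or limma voom, with 3 lower and 0 higher at an unadjusted p below 0.05. DESeq2 called 2 lower, COLEC12 among them. COLEC12, a collectin of vessel walls, had a log2 fold change of -0.88 ± 0.27 (SE; edgeR adjusted p = 0.133). CPN2, a subunit of the carboxypeptidase that inactivates C3a and C5a, and C1RL, a relative of C1R, were fitted at -0.51 and -0.46 log2 (edgeR adjusted p = 0.238 and 0.314).

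FCN2, a ficolin of the lectin pathway named here after its values were seen, was at 153, 94.1, 126 and 132 CPM in the MIDY libraries, against 139, 29.2, 25.5, 33.5 and 16.6 CPM in the WT libraries. WT 1 lay among the MIDY libraries and the other WT libraries far below them. Over all libraries the log2 fold change was 1.38 ± 0.61 (SE; edgeR adjusted p = 0.321), and without WT 1 it was 2.26 ± 0.22 and called (SE; adjusted p = 0.00371).

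Ratios of partner transcripts within a library, which need no scaling between libraries, were compared for 9 pairs by exact two-sided permutation over 126 splits, whose smallest p is 0.00794. None passed after adjustment over the 9 pairs. The ratio of C1R to C1S counts was 0.863, 0.897, 0.825 and 0.825 in the MIDY libraries, against 0.970, 0.997, 1.01, 0.856 and 0.910 in the WT libraries, with only WT 4 below any MIDY library (log2 difference -0.15, exact permutation p = 0.0476, adjusted 0.214). The ratio of MASP2 to MASP1 counts was 0.659, 0.377, 0.278 and 0.335 in MIDY and 0.548, 1.09, 0.673, 0.618 and 0.658 in WT (log2 difference -0.83, exact permutation p = 0.0397, adjusted 0.214). The ratio of C8B to C8G had a log2 difference of 0.48 and that of C8A to C8G one of 0.33 (exact permutation p = 0.0873 and 0.167, adjusted 0.262 and 0.375). The remaining 5 ratios had adjusted exact permutation p from 0.443 to 0.881.

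The chains of C1q kept close count ratios across animals, spanning 0.395 log2 for C1QA to C1QB and 0.413 for C1QC to C1QB. The ratio of C1R to C1S spanned less, 0.296 log2. C1QA to C1QB ran from 0.951 to 1.05 in MIDY and from 0.999 to 1.25 in WT, and C1QC to C1QB from 1.90 to 2.13 in MIDY and from 1.79 to 2.39 in WT. C4BPA to C4BPB ran more widely in MIDY, from 3.61 in MIDY 4 to 6.35 in MIDY 1, than in WT, from 4.43 to 5.48. CFB and C2, which lie 34 bases apart on chromosome 7, had a ratio of 8.97 to 16.1 in MIDY, the highest in MIDY 4, and of 8.39 to 12.4 in WT. A ratio of MBL1 to MBL2 of 219 in MIDY 3 set that library apart from the 0.461 to 8.05 of all others.

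**Figure D5:**
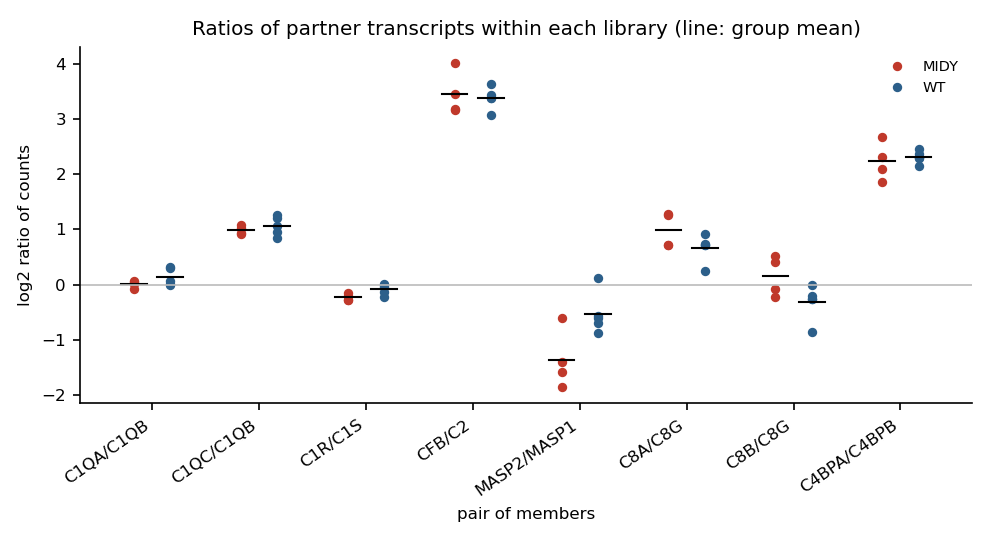
Log2 ratio of the counts of partner transcripts in each MIDY library (red, left of each pair) and WT library (blue), with group means as black lines; the MBL1 to MBL2 ratio is left out for its range. Only the MASP2 to MASP1 and C1R to C1S ratios had an exact permutation p below 0.05 before adjustment, and none after it.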

How the data were processed

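RNA of 9 livers was sequenced, 4 MIDY and 5 WT, grouped by the genotype label; nothing in the labels pairs animals or names a batch. Per the labels' protocols, total RNA was isolated with Trizol, depleted of ribosomal RNA and made into libraries with the Nugen Encore Complete kit. The ribosomal RNA gene RN18S still took 6.96 (MIDY 3) to 9.95% (MIDY 2) of counts in MIDY libraries. In WT libraries it took 8.18 (WT 5) to 11.4% (WT 3). The authors deposited a table of raw counts, gene symbols by libraries; STAR, HTSeq, DESeq2 and Sscrofa11.1 are named in the submitters' processing notes, and versions, annotation and strand setting are not given in the notes and labels used here. Counts of overlapping genes are therefore uncertain. All 29837 symbols matched the RefSeq table of Sscrofa11.1, which gave positions; 0 columns were unused.

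Counts went into the edgeR 4.0.16 test in R 4.3.3 (filterByExpr with a minimum count of 10, TMM, robust quasi-likelihood fit), after the fit was checked on simulated data. The filter kept 14100 genes with 99.9% of counts. P-values are two-sided, Benjamini-Hochberg adjusted over all genes tested and called below 0.05. CPM are counts over the TMM-scaled library size times 1e+06. SE is the log2 fold change over the square root of F. Every pair of libraries differed beyond sampling noise (chi-square per degree of freedom at least 13.8). Ratios of counts used a pseudocount of 0.5 and exact permutation.

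Alternatives were RLE or total-count scaling, the 10 most abundant genes (C3 among them) taken out, no filter, a floor of 1 CPM reached by 4 or more libraries, DESeq2 1.42.0, weighted limma voom 3.58.1, sva 3.50.0 with 1 surrogate variable, each library left out, WT 1 and WT 2 left out together, and a pseudocount of 1 for ratios. Values in every library are given for called members and, in each role, for up to 2 members with the smallest p and the one with the highest CPM; other lists name up to 4 genes, and 1 gene of the wider pathway list is not reported here. The members, lists and alternatives were chosen with earlier results of these data known.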

Additional observations from a re-analysis of the deposited data

Results flagged for a closer look

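Each member's CPM and each log2 ratio was scanned within each group for a library whose gap to the nearest other one was a large part of the group's range, and 8 of 84 such groups had one; chance flags about 1 in 20. MBL2 was at 0.211 CPM in MIDY 3, against 76.5 to 82.0 CPM in the other MIDY libraries, and the log2 ratio of MBL1 to MBL2 was 7.77 there, against -0.68 to -0.41. C6 was at 741 CPM in MIDY 4, against 912 to 939.9 CPM in the other MIDY libraries. CD59 was at 17.8 CPM in MIDY 3, against 20.0 to 20.3 CPM in the other MIDY libraries. C3AR1 was at 12.6 CPM in MIDY 2, against 9.73 to 10.1 CPM in the other MIDY libraries, and at 21.2 CPM in WT 2, against 11.2 to 11.7 CPM in the other WT libraries. In WT 3, C8G was at 743 CPM, against 399 to 457 CPM in the other WT libraries, and VTN at 5373 CPM, against 2837 to 3477 CPM in the other WT libraries.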

How the results depend on the processing

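No paired analysis was possible because the labels give the animals no numbers shared between the groups. Over all genes 115 were called higher and 50 lower; DESeq2 called 355 and 284, limma voom called 81 lower, a surrogate variable gave 86 lower, leaving out each library gave 34 to 152 higher and 4 to 107 lower, and leaving out WT 1 and WT 2 together gave 42 and 24. The count of members called lower, 1 with edgeR, was 0 with total-count scaling, 3 with DESeq2, 2 with limma voom, 2 with a surrogate variable, 0 to 2 with a library left out and 0 without WT 1 and WT 2 together. With no filter it was also 1, but that gene was CFD in place of CD59, and without MIDY 1 it was MASP2. The wider pathway list gave 1 gene higher (FCN2) without WT 1 and without WT 1 and WT 2 together, 0 to 1 over the left-out libraries, and 2 genes lower with DESeq2 and 1 with a surrogate variable (CPN2). The members' median log2 fold change stayed below 0 under every alternative run, from -0.30 to -0.13, and no ratio passed the adjusted threshold under any alternative run. Among refits of single members, 574 kept their side of the threshold, 10 lost the call of CD59 (adjusted p = 0.108 by edgeR without WT 1 and WT 2 together) and 9 gained one for CFD, MASP2 or C7. CD55 and C5AR1 had under 200 reads per library.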
